A study of Mus musculus with 4 samples.

Results

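Members of the regulator of G-protein signalling (RGS) family, *Rgs1*, *Rgs2*, *Rgs4*, *Rgs5*, *Rgs10* and *Rgs16*, were followed in mesenchymal stromal cells (MSC) of adult mouse intestine. These 6 genes are part of the 28692 genes counted. They were chosen by name, for their counts of unique molecular identifiers (UMIs, 1 per captured mRNA molecule) by intestine and cell class. In particular, *Rgs5* was to be compared between small intestinal fibroblasts (FB) and pericytes. Levels of these 6 genes are therefore a description. No p-value is given for them, and how many pass the rule used for other genes is stated without reading anything from it.

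RGS proteins end signals from G protein-coupled receptors. They bind active Gα subunits and speed up the hydrolysis of GTP, so that the G protein returns to its resting state. RGS2 acts mainly on Gαq, and RGS4, RGS5 and RGS16 on Gαi and Gαq. RGS10 is a small protein that acts on Gαi, and RGS1 is known from lymphocytes and other leukocytes. *Rgs5* and *Rgs4* are widely used as marker genes of pericytes, the contractile cells that lie along capillaries.

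The stromal cells were taken from lamina propria, the tissue layer that carries the gut epithelium. Mice of the strain labelled C57BL6/Nrj, aged 8 to 10 weeks, had received no treatment. Each of 2 independent experiments pooled 3 female mice, and each intestine gave 2 libraries, here called replicates 1 and 2. Muscularis externa had been removed and live Itgb1+ cells sorted that were negative for EpCAM, L1CAM, CD31, CD45, Ter119 and BP3, with droplet libraries made by a 3' or a 5' kit (which kit a library had was not stated). Both intestines share this sort, so only cells passing it are described. The labels do not say that replicate numbers mark a shared experiment.

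*Rgs5* and *Rgs4* are neighbours on chromosome 1. In GENCODE vM21 (GRCm38), *Rgs5* lies at chr1:169655501-169695813 on the plus strand and *Rgs4* at chr1:169741477-169747642 on the minus strand, with 45663 bases between them. *Rgs2* (chr1:143999338-144004161, minus strand), *Rgs1* (chr1:144242296-144249242, minus strand) and *Rgs16* (chr1:153740349-153745468, plus strand) are on the same chromosome. *Rgs10* is at chr7:128373621-128418758 on the minus strand. Exons of *Rgs16* overlap the antisense gene *Gm28513*.

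The promoters of *Rgs5* and *Rgs4* are shown because both genes were highest in pericytes in both intestines, while *Rgs5*, and not *Rgs4*, was above 1% of the pericyte level in small intestinal FB. Each runs from 250 bases before to 50 bases after the RefSeq start (GRCm38.p6), at chr1:169655251-169655550 (plus strand) for *Rgs5* and chr1:169747593-169747892 (minus strand) for *Rgs4*. Capitals mark a match, on either strand, to the TATA box (letters TATAAA), the core of the Notch effector RBPJ (letters TGGGAA), the AP-1 site (letters TGANTCA), the GATA factor core (letters AGATAA) or the CArG box of serum response factor.
Rgs5: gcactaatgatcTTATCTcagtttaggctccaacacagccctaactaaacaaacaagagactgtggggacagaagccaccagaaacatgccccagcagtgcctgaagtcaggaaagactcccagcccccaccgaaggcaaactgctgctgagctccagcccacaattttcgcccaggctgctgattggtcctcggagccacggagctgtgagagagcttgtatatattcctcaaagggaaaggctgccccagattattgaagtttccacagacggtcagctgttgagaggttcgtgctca
Rgs4: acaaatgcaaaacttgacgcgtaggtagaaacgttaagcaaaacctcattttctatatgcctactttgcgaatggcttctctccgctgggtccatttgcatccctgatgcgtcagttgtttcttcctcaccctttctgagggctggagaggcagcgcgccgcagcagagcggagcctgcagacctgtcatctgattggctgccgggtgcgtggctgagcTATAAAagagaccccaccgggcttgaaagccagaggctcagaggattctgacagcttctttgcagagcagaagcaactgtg
The *Rgs4* window held TATAAA, with its first base at position -31 from the start. The *Rgs5* window had no TATAAA and held 1 match, the GATA core on the reverse strand, at position -238. The E box CANNTG, not in capitals, was found 5 times in the *Rgs4* and 1 time in the *Rgs5* window. Of 32817 RefSeq promoters of this length, 13.6% held TATAAA, 11.2% AGATAA, 72.3% CANNTG, 25.6% TGGGAA, 7.81% TGANTCA and 1.63% a CArG box. G and C made up 52.3% of the *Rgs5* and 53% of the *Rgs4* window, close to the median of 52.7% over all promoters, against 70% in *Rgs2*, 76% in *Rgs10* and 66% in *Rgs16*. Promoters of 5 of the 6 genes were matched, all but *Rgs1*.

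After filtering, 28711 cells were kept of 34983 barcodes, from libraries of 14341443 to 52269372 UMIs. Replicate 1 libraries held fewer and deeper cells (1804 and 2381 cells, median 6948 and 8809 UMIs, for small intestine and colon) than replicate 2 libraries (13212 and 11314 cells, median 2688 and 3854.5 UMIs). Small intestine and colon replicate 2 shared 69 barcodes and the replicate 1 libraries 8. Endothelial cells made up 19.8% of cells in small intestine replicate 1 and 10.0% in colon replicate 1, despite the CD31- sort.

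Levels are given as CPM, the UMIs of a gene summed per library and class and scaled to a fixed total over all genes. Cells were assigned to classes from marker genes that include no *Rgs* gene. FB were divided into PDGFRα-hi FB (4169 cells), CD81+ FB (4287 cells) and other FB (17882 cells, which hold the Fgfr2+, Igfbp5+ and CD90+ cells of the study). Smooth muscle cells (SMC, 1037 cells) and pericytes (149 cells) completed the 5 classes compared. Such a class is a range on a score, and 450, 893, 1502, 10 and 8 cells of these classes, in the same order, lay within 0.1 of a threshold. Pericytes were few, with 45 and 17 cells in small intestine and 50 and 37 in colon. Genes that led them in both intestines included *Rgs4*, *Vtn*, *Notch3* and *Ndufa4l2* (with *Cox4i2* in small intestine and *Rgs5* in colon), and SMC were led by *Actg2*, *Cnn1* and *Myh11*. Small intestinal PDGFRα-hi FB had the pericyte marker *Kcnj8* among their leading genes, and their summed pericyte markers reached 750 and 566 CPM, against 202 and 179 CPM in colon. In summed UMIs, fewer expressing cells and less RNA per cell cannot be told apart.

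*Rgs5*, which restrains Gαi and Gαq signals in vessel walls, was abundant in small intestinal FB and scarce in colonic FB. Over all FB it was at 639 and 629 CPM in the small intestinal libraries (replicates 1 and 2), against 28.7 and 26.7 CPM in the colonic ones. The mean was 22.9-fold higher in small intestine, and the ratio was 22.3 within replicate 1 and 23.5 within replicate 2. Both small intestinal libraries lay above both colonic libraries in each of the 3 FB classes.

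Other FB held the highest *Rgs5* level of the FB classes. It was 925 and 727 CPM in small intestine (mean 826 ± 140, SD, n = 2) and 47.7 and 43.1 CPM in colon (45.4 ± 3.26, n = 2), with a log2 fold change, colon minus small intestine, of -4.23 (SE 0.28). CD81+ FB had 331 and 420 CPM in small intestine and 32.4 and 5.07 CPM in colon, a log2 fold change of -4.57 (SE 0.88). The colonic CD81+ libraries stood apart from each other, so that the ratio was 10.2 within replicate 1 and 82.8 within replicate 2. PDGFRα-hi FB, which lie next to the epithelium, had the lowest level, 114 and 84.8 CPM in small intestine and 1.91 and 2.85 CPM in colon, which is a log2 fold change of -5.19 (SE 0.40).

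SMC and pericytes differed less, or the other way. SMC had 929 and 648 CPM of *Rgs5* in small intestine and 401 and 308 CPM in colon, a ratio of 2.32 within replicate 1 and 2.10 within replicate 2. Small intestinal SMC numbered only 31 and 86 cells. Pericytes had 5319 and 3318 CPM in small intestine and 7731 and 5081 CPM in colon, and here the libraries of the 2 intestines overlapped (log2 fold change 0.60, SE 0.42). In small intestine the order was thus pericytes, then other FB and SMC, whose libraries overlapped, then CD81+ FB and PDGFRα-hi FB. In colon, 11 and 40 interstitial cells of Cajal (ICC) came after pericytes with 1155 and 2175 CPM. Colonic endothelial cells (212 and 604 CPM) overlapped SMC, and the 3 FB classes came last. Cells with both pericyte and SMC markers were few and were left out of these orders. They had 2410 and 3962 CPM in small intestine (18 and 1 cells) and 2997 and 2406 CPM in colon (39 and 7 cells).

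**Figure D1:**
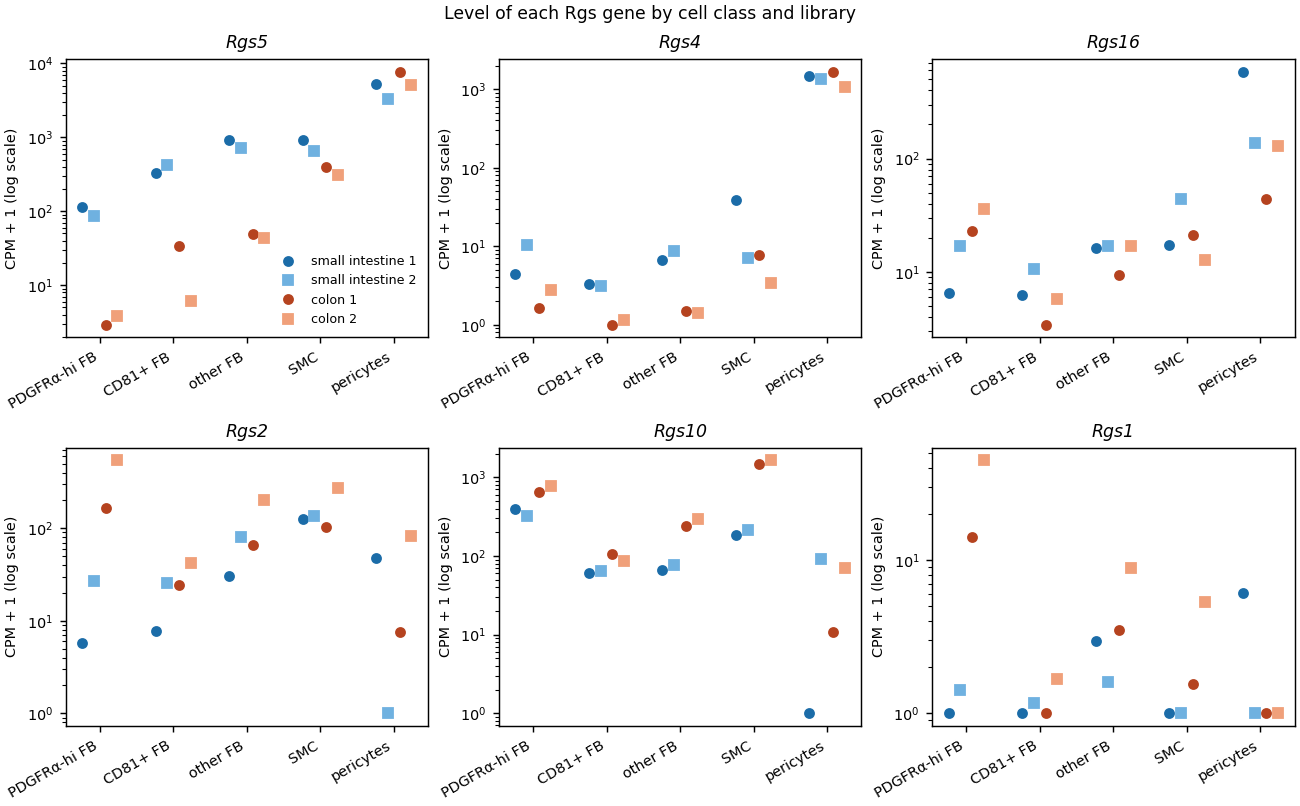
Level of each of the 6 genes (CPM + 1 of summed UMIs, on a log axis) in 5 cell classes, 1 point per library, with small intestine in blue and colon in red, and circles for replicate 1 and squares for replicate 2. *Rgs5* points of small intestinal FB lie above those of colonic FB in every FB class, while pericyte points of the intestines overlap.

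Set against pericytes of the same library, *Rgs5* in small intestinal FB was at 12.02% and 19.0% of the pericyte level (mean 15.5% ± 4.91, SD, n = 2). In colon the figures were 0.371% and 0.526%. Pericyte genes fixed as markers did not behave alike. These markers set the gates for pericytes and FB, so low percentages in FB are partly fixed by the gating. *Rgs5* entered no gate. *Higd1b*, *Notch3*, *Mcam* and *Ndufa4l2* were under 1% of the pericyte level in FB of all 4 libraries. *Cox4i2* was at 0.157% and 0.0494% in small intestinal FB and at 2.96% and 3.46% in colonic FB. *Cspg4*, which encodes the proteoglycan NG2, was at 28.8% and 31.7% in small intestinal and 6.63% and 6.51% in colonic FB, and *Kcnj8*, a potassium channel gene, at 12.9% and 4.98% against 3.26% and 2.51%.

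**Figure D2:**
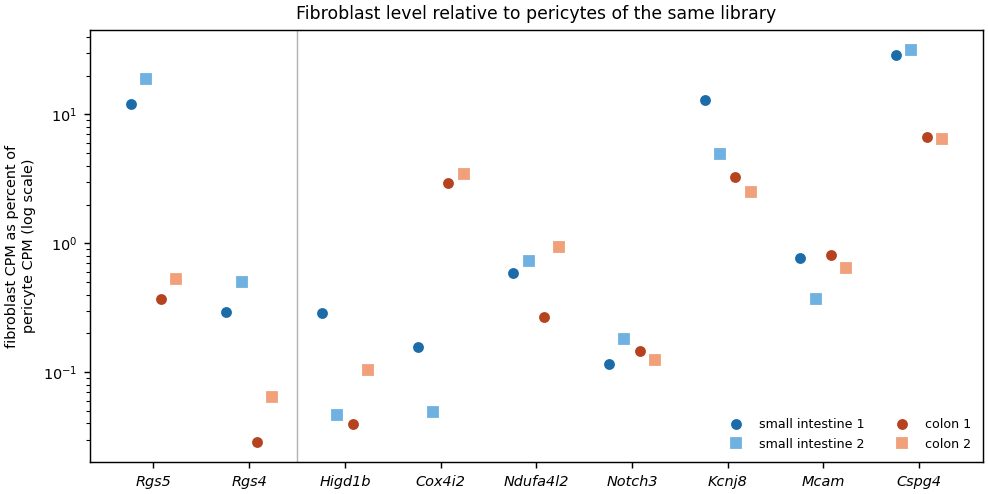
Level in all FB as a percent of the level in pericytes of the same library (log axis), for *Rgs5*, *Rgs4* and the 7 pericyte markers, 1 point per library. *Rgs5* is at 12.02% and 19.0% in small intestine and under 1% in colon.

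Small intestinal FB that carried no UMI of any pericyte or SMC marker also held *Rgs5*. Such cells were 34.4% and 52.2% of small intestinal FB (414 and 6782 cells), but 0 of 161 and 13 of 1063 PDGFRα-hi FB, so they are other FB and CD81+ FB almost throughout. They held 565 and 699 CPM of *Rgs5*, against 639 and 629 CPM in all FB, and 68.8% and 65.4% of them had a UMI of it. In colon, marker-free FB held 25.7 and 12.2 CPM, against 28.7 and 26.7 CPM in all FB. The ratio of *Rgs5* to *Rgs4* UMIs also set FB apart from pericytes. It was 147 and 91.9 in small intestinal and 60.0 and 39.3 in colonic FB, against 2.43 to 4.78 in pericytes of the 4 libraries.

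Cell by cell, *Rgs5* was spread over most small intestinal other FB. A UMI was found in 82.6% (95% exact binomial interval 79.6 to 85.2) and 65.7% (64.8 to 66.6) of them, and in 16.8% (14.5 to 19.3) and 7.24% (6.61 to 7.91) of colonic other FB. Intervals cover counting error only. With every cell thinned to 1500 UMIs, the small intestinal shares were 59.1% and 53.5% and the colonic shares 5.99% and 4.40%, after 34, 1139, 21 and 421 shallower cells were left out. None of the 5 classes compared was free of the gene. Plasma cells had 0 UMIs of it, but numbered only 9 and 2 in small intestine and 1 in colon. Endothelial cells, which should express little of it, had a UMI in 3.35% of 358 cells in small intestine replicate 1 (median 4401 UMIs), in 5.44% of 239 cells in colon replicate 1 (median 5044 UMIs) and in 21.1% of 19 cells in colon replicate 2 (median 5264 UMIs). In small intestine replicate 1, 70.6% of FB had a UMI (median 8397 UMIs). Of PDGFRα-hi FB, 28.6% and 12.7% had a UMI in small intestine, against 1.22% and 0.885% in colon. The share of colonic PDGFRα-hi FB in replicate 1 lay under that of endothelial cells of the same library and is read as background. In colon replicate 2 the endothelial share rests on 76 UMIs in 4 of 19 cells, so it sets no background. There, 7.24% of other FB had a UMI, against 1.24% of CD81+ FB and 0.885% of PDGFRα-hi FB.

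**Figure D3:**
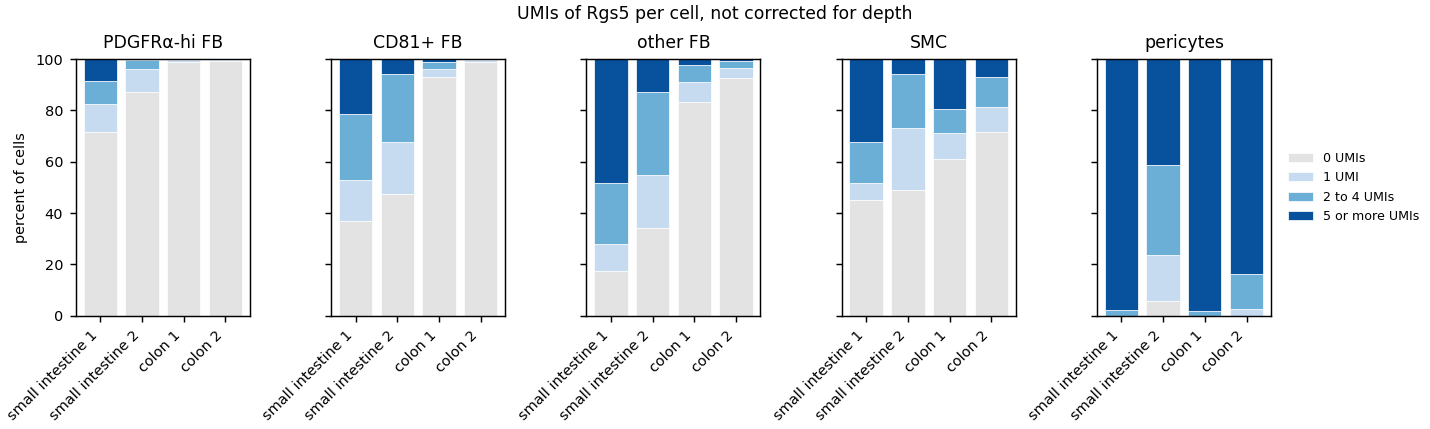
Percent of cells with 0, 1, 2 to 4, or 5 or more UMIs of *Rgs5* in each class and library, not corrected for depth. Cells with 5 or more UMIs are 48.3% and 12.8% of small intestinal other FB, 2.20% and 0.785% of colonic other FB, and 41.2% to 98.0% of pericytes.

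Clusters were computed with the *Rgs* genes left out, and named by the gate of most of their cells. Clusters whose leading genes held more markers of another class than of FB were then set aside (4 small intestinal and 2 colonic). The remaining 15 small intestinal FB clusters, split by library, had 91.3 to 1314 CPM of *Rgs5* (median 399 over 16 values). The 16 colonic FB clusters had 0 to 246 CPM (median 5.20 over 30 values), so that the ranges overlapped between 91.3 and 246 CPM. Of the clusters set aside, one of 74 and 267 cells led by the SMC genes *Actg2*, *Cnn1* and *Myh11* had 1831 and 1048 CPM in small intestine. A colonic one of 143 cells in replicate 2, led by *Ptn*, *Fibin* and *Chodl* and with the ICC gene *Kit* among its leading genes, had 1291 CPM. A cluster with most PDGFRα-hi FB of small intestine replicate 1 (156 cells), led by *Kcnj8*, was also set aside and had 118 CPM. Without the FB of all such clusters (22 to 1686 cells per library), small intestinal FB were at 15.2% of the pericyte level.

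**Figure D4:**
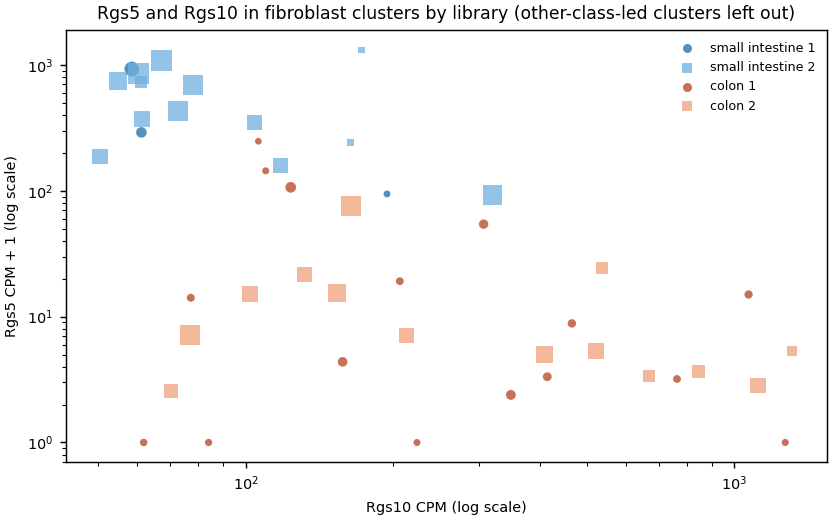
*Rgs5* level (CPM + 1, vertical log axis) against *Rgs10* level (CPM, horizontal log axis) of FB clusters, 1 point per cluster and library, with larger points for more cells and clusters led by markers of another class left out. Small intestinal clusters (blue) range from 91.3 to 1314 CPM of *Rgs5* and 50.4 to 320 CPM of *Rgs10*, and colonic clusters (red) from 0 to 246 and from 61.9 to 1312 CPM.

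*Rgs4*, the neighbour of *Rgs5* and likewise a regulator of Gαi and Gαq, was a gene of pericytes in both intestines. They held 1474 and 1364 CPM in small intestine and 1672 and 1063 CPM in colon, and 64.7% to 93.3% of them had a UMI. The intestines overlapped, and the log2 fold change was 0.00 (SE 0.41). FB held little. Other FB had 5.59 and 7.71 CPM in small intestine and 0.476 and 0.416 CPM in colon, from 239 and 14 UMIs in all (log2 fold change -3.93, SE 0.42). In small intestine replicate 1, thinned to 1500 UMIs, 0.578% of other FB and 0.699% of endothelial cells had a UMI. Whether the FB level is background was not tested. Relative to pericytes, small intestinal FB were at 0.295% and 0.502% and colonic FB at 0.0286% and 0.0640%. Both genes were thus lower in colonic FB.

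The difference of the intestinal effect between pericytes and other FB was estimated in 1 model. Colon minus small intestine was higher in pericytes by 4.88 log2 units for *Rgs5* (SE 0.57) and by 3.82 for *Rgs4* (SE 0.67), where the median over all 11493 genes was 0.18. For *Rgs16* it was lower in pericytes by 2.07 log2 units (difference -2.07, SE 0.58).

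*Rgs16*, a regulator induced in many cell types by stimulation, was uneven among libraries. Pericytes had 584 and 136 CPM in small intestine and 42.9 and 128 CPM in colon, from 114, 3, 13 and 11 UMIs. The ratio was 13.6 within replicate 1 and 1.06 within replicate 2, so that the difference rests on small intestine replicate 1. PDGFRα-hi FB had 5.49 and 16.0 CPM in small intestine and 21.8 and 34.6 CPM in colon, while CD81+ FB had 5.28 and 9.51 CPM against 2.41 and 4.80 CPM. Outside the 5 classes it was at 204 CPM in endothelial cells of small intestine replicate 1, and at 300 and 549 CPM in those of colon. The few glia that had passed the sort (6 cells in small intestine replicate 1 and 9 and 1 in colon) held 597 CPM in small intestine replicate 1 and 830 and 704 CPM in colon. The antisense gene shares its exons, and reads of the pair were separated only as far as the counting used strand.

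*Rgs10* was higher in both colonic than in both small intestinal libraries in SMC and in all 3 FB classes. SMC had 186 and 210 CPM in small intestine and 1463 and 1644 CPM in colon (mean 198 ± 17.0 and 1553 ± 128, SD, n = 2 each), with a log2 fold change of 3.03 (SE 0.32). The fold was 7.88 within replicate 1 and 7.83 within replicate 2. A UMI was found in 51.6% and 32.6% of small intestinal SMC and in 92.3% and 91.1% of colonic SMC, and in 21.8%, 29.3%, 79.3% and 84.1% after thinning to 1500 UMIs (small intestine first). Endothelial cells of the replicate 1 libraries had a UMI of *Rgs10* in 3.07% and 0.837% of cells, at medians of 4401 and 5044 UMIs against 6143 and 7994 in SMC, and those of colon replicate 2 in 10.5% of 19 cells.

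In other FB, *Rgs10* was at 65.8 and 75.2 CPM (small intestine) against 236 and 297 CPM (colon), which is 3.59-fold and 3.96-fold within replicates 1 and 2. PDGFRα-hi FB were the FB with the highest level, 390 and 321 CPM in small intestine and 659 and 772 CPM in colon, a log2 fold change of 1.16 (SE 0.29). CD81+ FB differed least, with 60.0 and 63.2 CPM against 104 and 86.3 CPM. Pericytes had 2 and 9 UMIs of it in all in the 2 intestines, and no difference was detectable at this depth. Among colonic clusters of PDGFRα-hi FB the level ran from 349 to 1312 CPM.

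*Rgs2*, whose product restrains Gαq and so the contraction of vessel muscle, differed most between the intestines in PDGFRα-hi FB. Those of colon had 164 and 541 CPM, against 4.80 and 26.2 CPM in small intestinal PDGFRα-hi FB, 34.2-fold and 20.6-fold within replicates 1 and 2. Replicates differed widely, with means of 352 ± 266 and 15.5 ± 15.1 CPM (SD, n = 2), but the libraries of the intestines did not overlap (log2 fold change 4.62, SE 1.02). A UMI was found in 38.9% and 47.1% of colonic and 4.35% and 4.61% of small intestinal cells. After thinning, the colonic shares were 13.6% and 32.2% and the small intestinal shares 0.690% and 3.004%. Endothelial cells had a UMI in 5.31% (small intestine replicate 1), 3.35% (colon replicate 1) and 52.6% of 19 cells (colon replicate 2), or 2.20%, 1.10% and 26.2% after thinning, so they are no class without the gene. Colonic PDGFRα-hi clusters ran from 26.4 to 1226 CPM, so the gene varied strongly within the class.

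In the other classes, libraries of the intestines overlapped for *Rgs2*. Other FB had 29.4 and 78.6 CPM in small intestine and 64.8 and 202 CPM in colon. CD81+ FB had 6.79 and 24.5 CPM against 23.2 and 41.1 CPM, and SMC 126 and 136 CPM against 101 and 271 CPM. Within replicates 1 and 2, colon over small intestine was 2.21 and 2.57 in other FB and 3.41 and 1.68 in CD81+ FB. In SMC it was 0.804 and 2.00. In all 3 of these classes, and in PDGFRα-hi FB, replicate 2 was above replicate 1 in both intestines.

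*Rgs1* was sparse in FB and, among FB, at its highest in colonic PDGFRα-hi FB. They held 83 and 430 UMIs (13.2 and 43.8 CPM), in 4.36% and 4.55% of cells, against 0.838% of endothelial cells of small intestine replicate 1 and 0 of 239 and 0 of 19 in colon. Of small intestinal PDGFRα-hi FB, 0 of 161 cells in replicate 1 had a UMI. This allows a share of cells with a UMI of up to 1.86% by a floor of 3 cells, or 2.27% by the exact binomial limit. Replicate 2 held 1 UMI in 1063 cells. The ratio of the pooled counts was 124, with a 95% counting interval of 22.2 to 4917. Among PDGFRα-hi clusters, the highest level was in 1 of colon, at 45.3 and 145 CPM. Immune cells that had passed the sort held 1311 and 614 CPM in small intestine (44 and 6 cells). Colon had only 3 and 2 immune cells.

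**Figure D5:**
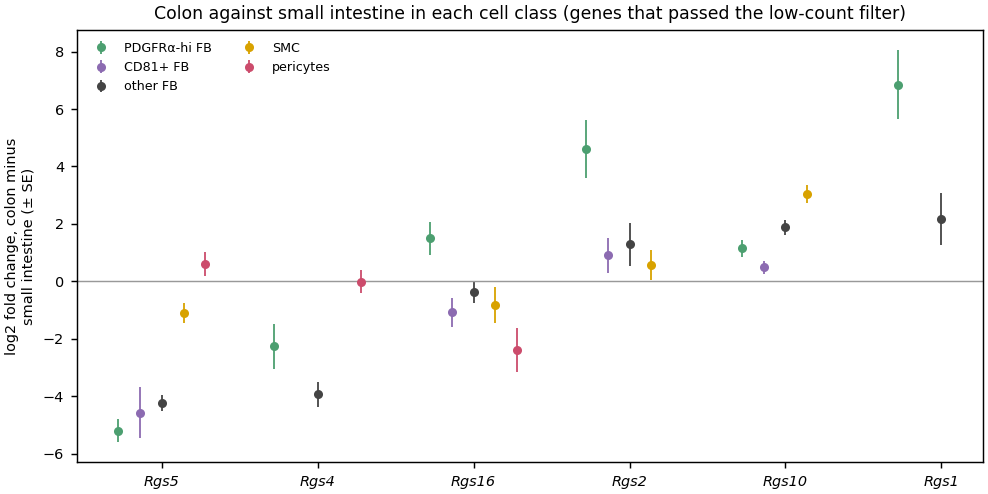
Log2 fold change, colon minus small intestine, of each gene in each class where it passed the low-count filter, with bars of 1 SE from the edgeR fit. *Rgs5* is negative in the 3 FB classes and SMC and positive in pericytes (0.60), and *Rgs10* is positive wherever it was fitted.

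Read as calls (quasi-likelihood test of edgeR, a p under 0.05 after Benjamini-Hochberg adjustment and an absolute log2 fold change over 1.5), few of these differences passed with 2 libraries per intestine. In PDGFRα-hi FB 1 of 6 fitted members was called (*Rgs5*), where 1.76% of all genes were. In other FB it was 1 of 6 (*Rgs5*) against 0.306%, and in SMC 1 of 4 (*Rgs10*) against 0.4%. None of 4 was called in CD81+ FB or of 3 in pericytes, where 0% of genes passed (963 and 138 genes had an unadjusted p under 0.05, and DESeq2 called 208 and 2). In the difference between pericytes and other FB, 2 of 6 were called (*Rgs5* and *Rgs4*) against 0.452%. Since the members were chosen on these values, nothing is read from these counts.

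Without small intestine replicate 1, without replicate 2 of it, or without FB of mixed clusters, *Rgs5* was not called in other FB, with log2 fold changes of -4.46 to -3.97 over 12 alternatives. In PDGFRα-hi FB the call was lost without small intestine replicate 2, and the values ran from -5.59 to -4.60. *Rgs10* in SMC was called in 10 of 10 alternatives, at 2.93 to 3.13. *Rgs4* in pericytes took either sign, from -0.38 to 0.69. Some that were not called passed under other settings: *Rgs1*, *Rgs2*, *Rgs16* and *Rgs4* in PDGFRα-hi FB under 6, 3, 2 and 1 alternatives, *Rgs4* and *Rgs10* in other FB under 4 each, *Rgs5* in CD81+ FB under 5 and *Rgs16* in pericytes under 3.

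Genes most alike in pattern were sought among 11911 genes over 24 class sums of single libraries (Pearson's r of log2(CPM + 10)). These sums share libraries and depth, and the values are a description. *Rgs5* was most like *Rgs7bp* (r = 0.845), *Endog* (0.835) and *Ndrg2* (0.797). *Rgs4* was most like *Lamc3* (0.972), *Notch3* (0.966) and *Vtn* (0.960), of which *Notch3* is a marker used to gate pericytes. *Rgs10* was closest to *Tox* (0.880), *Rgs2* to *Agt* (0.782) and *Nrg1* (0.777), *Rgs16* to *Plxnd1* (0.916), and *Rgs1* to *Mmp13* (0.967). Among the members themselves, r was 0.778 for *Rgs4* and *Rgs5* and 0.606 for *Rgs2* and *Rgs10*.

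Of 17 other *Rgs* and RGS-binding genes, *Rgs13* and *Rgs21* had 0 UMIs and *Rgs3* the most, with 4667. *Rgs17*, a regulator of Gαi and Gαz, rose in colonic PDGFRα-hi FB, from 5.49 and 5.74 CPM to 40.1 and 42.1 CPM (log2 fold change 3.01, SE 0.31, edgeR adjusted p = 0.0254). It was the only 1 of 6 genes tested in that class to pass, where 1.76% of all genes did. An unadjusted p under 0.05 (edgeR) was found for 4 of the 6, against 13.2% of all genes. The median log2 fold change was 1.60 over the 6, against 0.02 over all genes. None passed of 6 in CD81+ FB, 8 in other FB, 4 in SMC and 2 in pericytes. *Rgs7bp*, which encodes a membrane anchor of R7-type RGS proteins, differed in its effect between pericytes and other FB by 3.40 log2 units (SE 0.63, edgeR adjusted p = 4.8e-05). It had 215 and 182 CPM in small intestinal and 260 and 257 CPM in colonic pericytes, against 8.47 and 5.23 CPM and 0.476 and 1.17 CPM in other FB. The *Rgs17* call was lost without either small intestinal library (adjusted p up to 0.161), and the *Rgs7bp* call without colon replicate 1 (0.342).

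A few receptors that feed these G proteins passed in PDGFRα-hi FB and SMC. Of 53 listed, 22 were tested in PDGFRα-hi FB, with 1 higher and 2 lower in colon, where 1.76% of all genes were called (median log2 fold change 0.30, against 0.02 over all genes). *Aplnr*, the apelin receptor, fell from 126 and 141 CPM in small intestine to 4.46 and 2.75 CPM in colon (a difference of -5.09 log2 units, SE 0.35, edgeR adjusted p = 0.0173). *S1pr3*, a receptor of sphingosine 1-phosphate, fell from 27.4 and 20.1 CPM to 0.796 and 0.509 CPM (-5.02, SE 0.45, edgeR adjusted p = 0.0200). *Lpar3*, a receptor of lysophosphatidic acid, had 0 UMIs in small intestine and 170 and 237 in colon, at least 32.9-fold higher against a floor of 3 counts over the group (edgeR adjusted p = 0.0255). Calls of *S1pr3* and *Lpar3* were lost without either small intestinal library (adjusted p up to 0.0655 and 0.0869), and that of *Aplnr* without small intestine replicate 2 (0.0502).

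In SMC, 2 of 19 receptors passed, where 0.4% of all genes did, and 7 had an unadjusted p under 0.05, against 7.98% of all genes. *F2r*, the thrombin receptor, rose from 60.1 and 43.2 CPM in small intestine to 550 and 542 CPM in colon (by 3.45 log2 units, SE 0.38, edgeR adjusted p = 0.0120). *P2ry1*, a receptor of ADP, fell from 98.3 and 111 CPM to 16.4 and 12.1 CPM (-2.82, SE 0.42, edgeR adjusted p = 0.0420). Both passed under 10 of 10 alternatives. None of 27, 38 and 8 receptors passed in CD81+ FB, other FB and pericytes, and none of 34 in the difference between pericytes and other FB.

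G protein subunits and effectors gave no calls. Of 29 subunit genes, 0 of 19, 22, 25, 21 and 13 tested passed in PDGFRα-hi FB, CD81+ FB, other FB, SMC and pericytes (edgeR), with 2, 4, 6, 2 and 1 at an unadjusted p under 0.05. Of 27 effector and regulator genes found in the files (phospholipase Cβ, adenylyl cyclases, IP3 receptors, arrestins and receptor kinases), 0 of 21, 24, 25, 16 and 4 passed, with 7, 4, 3, 4 and 0 at an unadjusted p under 0.05. Over all genes, 13.2%, 8.58%, 10.2%, 7.98% and 5.44% had such a p in these classes. The median log2 fold change was -0.11 to 0.37 for subunits and -0.42 to 1.06 for effectors over the 5 classes (1.06 in pericytes, from 4 genes), against -0.01 to 0.05 over all genes. In the difference between pericytes and other FB, 0 of 23 subunits and 0 of 24 effectors passed, with 1 each at an unadjusted p under 0.05 (5.33% of all genes).

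Immediate early genes rise when tissue is digested and handled. In PDGFRα-hi FB their summed level was 16871 and 24643 CPM in small intestine and 47730 and 46379 CPM in colon. *Rgs2* and *Rgs1* were likewise higher in both colonic libraries of this class. Between the colonic replicates the sum did not rise, while *Rgs2* (164 and 541 CPM) and *Rgs1* (13.2 and 43.8 CPM) did. Of 17 immediate early genes tested, 16 had a positive log2 fold change (median 1.27, against 0.02 over all genes). An unadjusted p under 0.05 (edgeR) was found for 10, against 13.2% of all genes. Only 1 passed, where 1.76% of all genes did. This was *Egr2*, at 37.0 and 52.5 CPM in small intestine, against 176 and 154 CPM in colon (a difference of 2.01 log2 units, SE 0.29, edgeR adjusted p = 0.0495). Its call was lost with RLE size factors, with doublets kept, and without either small intestinal library (adjusted p up to 0.247). Over all FB the sums were 28482 and 35319 CPM against 46122 and 53007 CPM. Their part in the *Rgs2* and *Rgs1* levels was not tested.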

How the data were processed

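The authors aligned droplet reads to mm10 and counted UMIs per gene and barcode with Cell Ranger (per the file headers, 3.0.2 for replicate 1 and 3.1.0 for replicate 2). Deposited were raw, unnormalized UMI counts over 28692 genes. The members and gene lists were chosen with earlier results of these data known.

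Filters of 500 genes, 1000 UMIs (minimum) and 10% mitochondrial UMIs (maximum) passed 32216 barcodes. The automatic threshold of scrublet marked only 11, 1, 32 and 458 barcodes (small intestine 1 and 2, colon 1 and 2), so the highest scores were removed at 0.8% per 1000 barcodes (30, 2051, 50 and 1374). Cells were gated by mean log marker level per 10000 UMIs, with 363 left unassigned. Gate thresholds were set after marker levels had been seen. The study clustered cells, and rebuilt classes may differ from its own.

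UMIs were summed per library and class and compared with edgeR 4.0.16 in R 4.3.3 (filterByExpr, TMM, quasi-likelihood, no block, Benjamini-Hochberg adjustment over all genes tested). The difference between pericytes and other FB was a class by intestine term with library as a block. Other tools were scanpy 1.11.5 (Leiden clusters, resolution 1.5), pydeseq2 0.5.4 and scipy 1.17.1. With 2 libraries per intestine, p-values measure only the spread between these libraries, which may be technical. Steps were tested on simulated data. Named were all members, the 5 genes most alike per member (up to 3 are printed), and listed genes that passed (at most 4 per list and class).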

Additional observations from a re-analysis of the deposited data

Results flagged for a closer look

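*Rgs7bp* was singled out because its effect of intestine differed between pericytes and other FB by a test of the difference itself. Colon minus small intestine was 3.40 log2 units higher in pericytes than in other FB, as tested with edgeR. *Rgs16* was singled out because its libraries moved in opposite directions. In PDGFRα-hi FB both colonic libraries lay above both small intestinal ones, with a log2 ratio of means of 1.39. In CD81+ FB both lay below, with a ratio of -1.04, and in pericytes likewise, with -2.07. These differences between classes were not tested, and the pericyte value of small intestine replicate 2 rests on 3 UMIs. Groups of 2 libraries were too small for a check of single outlying libraries.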

How the results depend on the processing

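Counts of genes called moved far more than the levels. They were 201 in PDGFRα-hi FB, 0 in CD81+ FB, 40 in other FB, 35 in SMC, 0 in pericytes and 52 in the difference between pericytes and other FB. In the same order, DESeq2 called 514, 208, 410, 88, 2 and 18. With no low-count filter, the first 5 were 664, 410, 294, 222 and 5. Leaving out 1 library gave 0 to 577, 0 to 255, 0 to 188, 42 to 75, 5 to 31 and 11 to 70. The low end of 0 came without small intestine replicate 2 in PDGFRα-hi and other FB.

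The fit with the replicate number as a block called 937, 377, 710, 168 and 98 genes in the 5 classes. These were 8.2%, 3.36%, 5.43%, 1.92% and 3.87% of the genes tested. It called 5 of 6 members in PDGFRα-hi FB (all but *Rgs10*), 0 of 4 in CD81+ FB, 3 of 6 in other FB (*Rgs4*, *Rgs5* and *Rgs10*), 1 of 4 in SMC (*Rgs10*) and 1 of 3 in pericytes (*Rgs16*). Deviations of same-numbered libraries correlated at r = 0.352 to 0.802 over genes, but the labels do not say that a number marks a shared batch, and 2 pairs cannot settle it. The difference between classes had no such fit, since library was its block.

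Leiden clusters in place of gates gave 95 calls in CD81+ FB and 111 in the difference, and put FB at 22.6% of the pericyte *Rgs5* level in place of 15.5%. Clusters took the class of most of their gated cells, and the small intestinal one led by SMC genes held mostly cells gated as other FB, so clusters gave no SMC value. At least 1000 genes per cell gave 4 calls in pericytes and 10.9% for *Rgs5*. Doublets kept in gave 41 calls in CD81+ FB. Leaving out FB of mixed clusters, an alternative chosen after seeing the data, gave 14. Leaving out 1 library moved the *Rgs5* percentage from 12.02% to 19.0%. The causes were not tested. Among listed genes no direction turned. Of the 6 members, *Rgs4* in pericytes, *Rgs1* and *Rgs16* in other FB, *Rgs2* in SMC, and *Rgs1*, *Rgs2*, *Rgs10* and *Rgs16* in the difference, none of them called, took the other sign under at least 1 alternative. Pericytes of small intestine replicate 2 (17 cells) limit all pericyte values.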
